A study of Mus musculus with 2 samples.

Results

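Heat-shock-high natural killer (NK) cells are described here as the NK barcodes of mouse brain with the highest share of heat-shock messenger RNA. A barcode is the tag of a droplet that is taken to hold 1 cell. NK barcodes had at least 300 detected genes, at most 10% of unique molecular identifiers (UMIs, counted RNA molecules) from mitochondrially encoded genes, at least 1 UMI of Ncr1 or Klrb1c, at most 2 summed UMIs of the type 1 innate lymphoid cell (ILC1) genes Itga1, Cxcr6, Inpp4b, Gzmc and Tnfsf10, and no UMI of Cd3d, Cd3e, Cd3g, C1qa, C1qb or C1qc. Members were the top 10% of NK barcodes, pooled over both libraries, by the share of their UMIs that came from 8 gate genes: Hspa1a, Hspa1b, Hsph1, Stip1, Dnajb1, Dnaja1, Hsp90aa1 and Hspa8. This gave 290 members of 2902 NK barcodes and of 3404 barcodes in all. The choice used a measured value, so the levels of the gate genes, and every difference between members and the other NK barcodes, are a description with no test.

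NK cells had been sorted by fluorescence from the brains of 8-month-old female mice and read with a 10x Chromium 5′ gene expression kit. There was 1 library from wildtype C57BL/6 mice and 1 from mice of the 3XTg-AD line, which carries mutant human APP and tau transgenes and a mutant presenilin 1 knock-in and is used as a model of Alzheimer's disease. Neither group was treated. How many mice were pooled, and the strain background of the transgenic line, are not stated in these sources. With 1 library per genotype a difference between genotypes cannot be told apart from a difference between libraries.

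The heat-shock response is the transcription programme that heat-shock factor 1 (HSF1) starts when unfolded proteins accumulate. HSF1 trimers bind heat-shock elements, runs of inverted GAA units, in the promoters of chaperone genes. HSP70 proteins (Hspa1a and Hspa1b when stressed, Hspa8 at all times) hold unfolded clients, J-domain proteins such as Dnajb1 and Dnaja1 hand clients to them, Hsph1 exchanges their nucleotide, and Stip1 passes clients on to HSP90 (Hsp90aa1 and Hsp90ab1). The same genes are also known to respond to warmth and to the dissociation of tissue.

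The wildtype library held 1709 barcodes with 5559995 UMIs, and the 3XTg-AD library 1695 barcodes with 5468455 UMIs. The rule left 1445 and 1457 NK barcodes. A single barcode sequence occurred among the NK barcodes of both libraries, and it was not a member. In 2 wildtype and 1 3XTg-AD NK barcodes, over 20% of UMIs came from erythroid or neutrophil marker genes, and none of these was a member. The number of UMIs behind the members was very unequal: outside the gate genes, wildtype members held 50370 UMIs and 3XTg-AD members 803033. A gene with no UMI in the wildtype members could therefore still have had up to 59.6 counts per 1000000 UMIs (CPM, with gate genes left out of the total), against 3.74 CPM in the 3XTg-AD members (a floor of 3 UMIs). Intervals given below are 95% intervals that cover counting error only.

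Promoter letters are shown first, because the gate rests on a programme with a known binding motif. The genes shown were picked from the gate and other HSF1-linked genes for a run of 3 motif units, and not for their levels. RefSeq promoter windows of build GRCm38.p6, from 250 bases before to 50 bases after the annotated start, were searched on both strands for 3 alternating units of a heat-shock element, GAA, TTC and GAA or TTC, GAA and TTC, with 2 free bases between units. Such a run of 3 units stood in 179 of 27025 genes of the table (0.662%). It stood in 1 of 6 gate genes with a window (Hsph1; Hsp90aa1 and Hspa8 had none in the table) and in 3 of 21 other HSF1-linked genes with a window (Hspd1, Hspe1 and Chordc1). The shorter run of 2 such units, which every run of 3 contains, stood in 17.0% of genes, in 4 of the 6 gate genes and in 9 of the 21. Capitals mark the matched letters, which in 3 of these stretches are overlapping matches.
Hspe1: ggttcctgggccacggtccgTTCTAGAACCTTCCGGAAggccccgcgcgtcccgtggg
Hspd1: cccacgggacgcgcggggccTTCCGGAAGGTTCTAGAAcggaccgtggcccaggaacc
Chordc1: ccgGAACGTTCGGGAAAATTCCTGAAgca
Hsph1: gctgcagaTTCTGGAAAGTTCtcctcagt

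The Hspe1 and Hspd1 stretches are the 2 strands of 1 interval, chr1:55088039-55088096 (plus strand for Hspe1, minus strand for Hspd1), which lies between the divergent RefSeq starts of the genes of the mitochondrial chaperonin pair HSP10 and HSP60. The first match began 89 bases before the Hspe1 start and 144 bases before the Hspd1 start. The Chordc1 stretch, chr9:18292260-18292288 on the plus strand, spans the annotated start, and the Hsph1 stretch, chr5:149636280-149636308 on the minus strand, begins to match 15 bases after it. Of the 4 genes with such letters, Hsph1 chose the members, and Hspe1, Hspd1 and Chordc1 were at 2.67, 2.23 and 1.65 times the level of the other NK barcodes in the 3XTg-AD members. Over all genes that were at least 1.5-fold higher in the 3XTg-AD members, 4 of 322 with a window held 3 units (1.24%), against 0.621% of the 5477 genes measured there with a window. None of 314 lower genes did. Of the 4 higher genes, Hspe1 and Hspd1 share 1 interval. Runs of 2 units stood in 17.4% of the higher, 12.1% of the lower and 13.8% of the measured genes with a window. These shares were not tested. A match is a run of letters, and binding was not measured.

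Members came almost wholly from the 3XTg-AD library. They were 20 of 1445 wildtype NK barcodes (1.38%, exact Clopper-Pearson interval 0.847 to 2.13%) and 270 of 1457 3XTg-AD NK barcodes (18.5%, 16.6 to 20.6%), so that 93.1% of members were 3XTg-AD barcodes. The shift was not limited to the tail. The median NK barcode had a gate share of 0.197% in wildtype and of 0.399% in 3XTg-AD, the 90th percentiles were 0.392% and 0.820%, and 85.4% of 3XTg-AD NK barcodes lay above the wildtype median. The highest share was 1.06% in the wildtype and 1.69% in the 3XTg-AD library.

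**Figure D1:**
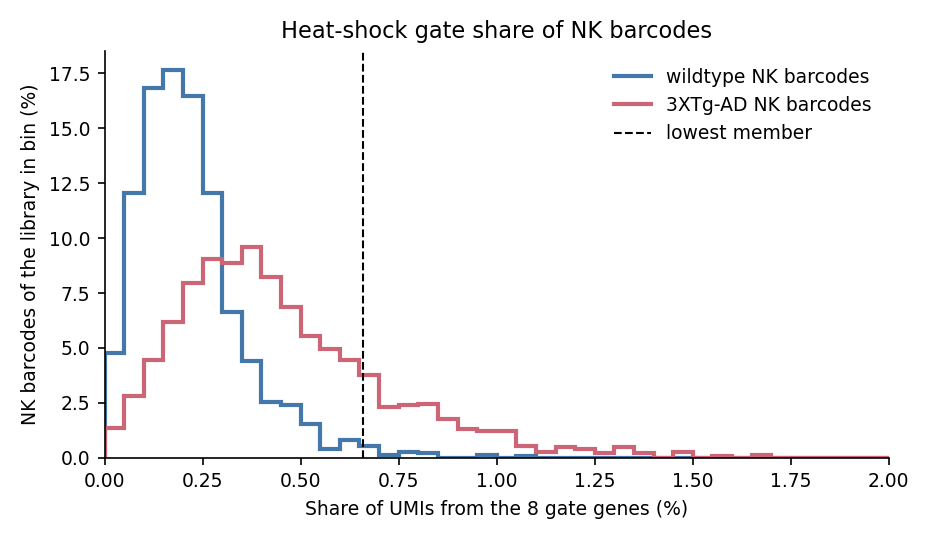
Share of each NK barcode's UMIs that came from the 8 gate genes (x axis, percent), as the percent of the library's NK barcodes in each bin (y axis), for the wildtype (blue) and 3XTg-AD (red) libraries. The dashed line marks the lowest member; the 3XTg-AD distribution sits to the right over its whole width (medians 0.399% and 0.197%), with no gap at the line.

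The class is a range and not a separate cluster. The lowest members had gate shares of 0.660, 0.660 and 0.662%, and the highest barcodes outside had 0.659, 0.658 and 0.658%. Within 10% of the limit lay 64 members and 98 other barcodes. When all barcodes were thinned to 1400 UMIs before the choice, members made up 1.13% (wildtype) and 18.6% (3XTg-AD) of NK barcodes deep enough, which differs from the values above by less than their counting intervals.

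All 8 gate genes were higher in members than in other NK barcodes of the same library, as the choice requires. In the 3XTg-AD library, Hspa8, the HSP70 of unstressed cells, stood at 5271 CPM in members and 2148 in the others. It supplied 58.3% of the members' gate UMIs. Dnaja1, a J-domain protein that delivers clients to HSP70, stood at 1567 and 667 CPM, and Hsp90aa1, the stress-responsive HSP90, at 950 and 324 CPM. Stip1, the adaptor between HSP70 and HSP90, stood at 398 and 124 CPM, and Dnajb1, the J-domain partner of the inducible HSP70s, at 386 and 173 CPM. The least abundant were Hsph1 at 194 and 60.5 CPM, Hspa1a at 136 and 48.0 CPM and Hspa1b at 132 and 42.2 CPM. The ratios in this library ran from 2.23 (Dnajb1) to 3.21 (Hsph1 and Stip1).

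Levels in wildtype members were within 1.5 times of those in 3XTg-AD members for 4 of the 8 genes and differed by more for the other 4. The other wildtype NK barcodes were below the other 3XTg-AD NK barcodes for all 8. Hspa8 stood at 4050 CPM in the 20 wildtype members and 1306 CPM in the other wildtype NK barcodes, Dnaja1 at 1668 and 384 CPM, and Hsp90aa1 at 913 and 228 CPM. Dnajb1 stood at 596 CPM from 30 UMIs, above its level in 3XTg-AD members, and Stip1 at 218 CPM from 11 UMIs, below it. Hsph1 stood at 139 CPM, Hspa1b at 79.4 CPM and Hspa1a at 59.6 CPM, each below its level in 3XTg-AD members; Hspa1a and Hspa1b were counted with 3 and 4 UMIs in all wildtype members, a ratio for Hspa1a of 3.26 with an interval of 0.658 to 9.87. Hspa1a (chr17:34969190-34972156, minus strand, GRCm38) and Hspa1b (chr17:34956436-34959238, minus strand) are near-identical neighbours, so the split of UMIs between them is uncertain. Hspa8, Hsp90aa1 and Hsp90ab1 have processed pseudogenes, and how the counting treated reads that fit such copies is not stated.

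**Figure D2:**
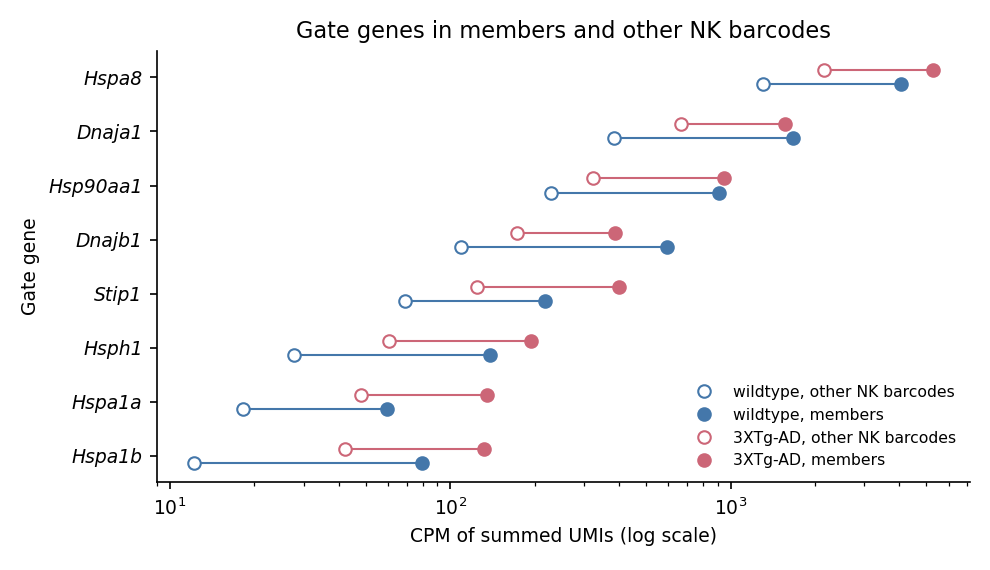
Level of each gate gene (y axis) as CPM of summed UMIs on a log axis (x axis), in members (filled) and other NK barcodes (open) of the wildtype (blue) and 3XTg-AD (red) libraries; a line joins the 2 sets of a library. Hspa8 spans 2148 to 5271 CPM in the 3XTg-AD library, and the open wildtype points lie left of the open 3XTg-AD points for all 8 genes.

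Each gate gene was then measured in members chosen by the other 7, so that its own counts did not choose them. In the 3XTg-AD library the ratio was 2.75 for Stip1 (2.37 to 3.19), 2.49 for Hsph1 (2.0 to 3.09), 2.37 for Hsp90aa1 (2.15 to 2.61), 2.12 for Hspa1b, 1.83 for Dnaja1, 1.78 for Dnajb1, 1.77 for Hspa1a and 1.69 for Hspa8 (1.62 to 1.76). In the wildtype library Hsp90aa1, Dnajb1 and Stip1 were at 3.33, 3.1 and 2.86, with 33, 17 and 11 UMIs behind them, but Hspa1b was counted once (ratio 1.61, 0.0401 to 9.35) and Hspa1a 3 times. Where the UMIs of each barcode were divided at random, with members chosen on one part and measured on the other, the 3XTg-AD ratios ran from 1.70 (Dnajb1) to 2.79 (Stip1). In the wildtype library they were 2.88 for Dnaja1 (2.04 to 3.95), 2.95 for Hsp90aa1 (1.86 to 4.48) and 2.43 for Hspa8 (1.99 to 2.94), while Stip1 stood at 0.896 (0.108 to 3.30), below 1.

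The gate genes were also taken in 2 sets of 4, which chose overlapping but different barcodes. When the gate was Hspa1a, Hspa1b, Hsph1 and Dnajb1 alone, the summed level of the other 4 genes was 1.46 times that of the other NK barcodes in the 3XTg-AD library (1.40 to 1.51) and 1.40 times in the wildtype library (1.27 to 1.55). When the gate was Stip1, Dnaja1, Hsp90aa1 and Hspa8 alone, the summed level of Hspa1a, Hspa1b, Hsph1 and Dnajb1 was at 2.05 times (1.86 to 2.27) and 2.99 times (1.94 to 4.42). In the 3XTg-AD library the choices shared 86 barcodes, 37.6% of the 229 chosen by the Hspa1a set and 31.9% of the 270 chosen by the Hspa8 set. Of the 270 3XTg-AD members, 178 had no UMI of Hspa1a or Hspa1b (65.9%, at a median of 2820.5 UMIs), against 83.5% of the other NK barcodes (median 2763 UMIs). At this depth a barcode without a UMI cannot be told apart from a cell without the transcript.

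Members were NK barcodes by their markers. Of the 9 NK markers, none was at 0 in members of either library, and their summed level was 40021 CPM in 3XTg-AD members and 35416 in the others. Ncr1, the activating receptor NKp46, stood at 2405 and 2200 CPM, and Klrb1c, the NK1.1 receptor, at 1554 and 1468 CPM. Both of these were part of the rule. The rule also set Cd3d, Cd3e, Cd3g, C1qa, C1qb and C1qc to 0 and capped 5 of the 10 ILC1 markers, in members and others alike, so only the remaining markers of these cells say anything about the members. The 8 other T cell markers summed to 193 CPM in 3XTg-AD members and 227 in the others, with 4 of 8 at 0 in members. Those counted were Lef1, Trac, Trbc1 and Trbc2. The 8 other microglia markers summed to 166 and 169 CPM, with 6 of 8 at 0. The 5 uncapped ILC1 markers summed to 47.3 and 72.7 CPM, with none at 0. Outside the rule, monocyte and macrophage markers summed to 24.9 and 91.3 CPM (8 of 9 at 0), and neutrophil markers to 2.49 and 2491 CPM (8 of 10 at 0), the latter from the single 3XTg-AD barcode named above. B cell, neural, vascular and erythroid markers summed to 36.1, 48.6, 250 and 0 CPM in the 3XTg-AD members, and to 53.3, 49.9, 216 and 0.277 CPM in the others. In the wildtype library the uncapped ILC1 markers went the other way, at 179 CPM in members and 107 in the others. The other microglia markers were at 238 and 170 CPM there, from 12 UMIs in members (ratio interval 0.721 to 2.46). The other T cell markers were at 179 and 228 CPM.

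Members were about as deep as the other NK barcodes, and held a smaller share of ribosomal protein RNA. Median UMIs per barcode were 2820.5 in 3XTg-AD members and 2763 in the others, and 2465 and 2877 in the wildtype library. After thinning to 1400 UMIs, members showed 832 genes per barcode and the others 810 in the 3XTg-AD library, and 837.5 and 791 in the wildtype library. The median share of cytosolic ribosomal protein UMIs was 14.2% in 3XTg-AD members and 17.0% in the others (13.6 and 18.5% in wildtype), and that of mitochondrially encoded UMIs 1.01 and 1.24% (1.27 and 1.42% in wildtype). The part of these shifts in the ratios given below was not tested beyond a scaling without ribosomal and mitochondrial genes, under which 301 genes were higher and 539 lower in the 3XTg-AD library (393 and 417 below).

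Outside the gate, 2 chaperones, a chemokine and 2 genes of the cytoskeleton were higher in members of both libraries, the chemokine largely through a single wildtype barcode. A gene was called where its ratio of CPM, members over other NK barcodes, was at least 1.5, or at most its inverse, in the same direction in both libraries. It was measured where at least 10 UMIs were expected in the members of each library. Of 699 genes measured, 5 were higher (0.715%) and 2 lower (0.286%). Some genes would pass in both libraries even if the calls of the 2 libraries were unrelated, and how many was not tested. The 5 were Hspa5, the HSP70 of the endoplasmic reticulum, Hsp90ab1, the constitutive HSP90, Ccl4, an inflammatory chemokine, Tubb4b, a beta tubulin, and Lcp1, an actin bundler of leukocytes. The 2 lower genes were Hmgb2, a chromatin protein of dividing cells, and H2afv, a histone H2A variant. Hmgb2 had 9 UMIs in wildtype members, and was at 1.88 times the rest in the top 10% of the wildtype library described below.

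The 2 chaperones, Hsp90ab1 and Hspa5, had 103 and 33 UMIs in wildtype members and 2858 and 378 in 3XTg-AD members. Ccl4 rested on few wildtype barcodes. Hsp90ab1 (chr17:45567775-45573271, minus strand) stood at 2045 CPM in wildtype members and 1213 in the others, and at 3559 and 1672 CPM in the 3XTg-AD library, ratios of 1.69 and 2.13. Hspa5 stood at 655 and 224 CPM in wildtype and at 471 and 227 CPM in 3XTg-AD, ratios of 2.92 and 2.07. With members chosen by Hspa1a, Hspa1b, Hsph1 and Dnajb1 alone, Hsp90ab1 stayed past the limit in 3XTg-AD (log2 ratio 0.70) and Hspa5 fell just under it (0.57). Tubb4b was at 2.10 and 1.58 times the others, and Lcp1 at 1.64 and 1.54 times. Ccl4 was at 4.36 and 1.64 times, but a single wildtype barcode held 123 of the 164 Ccl4 UMIs of wildtype members.

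Because the wildtype library held 20 members, the 3XTg-AD library was also read alone, a choice made after seeing the member counts. There 6904 genes were measured, 393 were at least 1.5-fold higher in members (5.69%) and 417 lower (6.04%), and the median log2 ratio of all of them was 0.05. In the wildtype library alone 700 genes were measured, with 63 higher (9%) and 47 lower (6.71%). Each list below is read against these shares.

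Of the genes linked to HSF1 outside the gate, 10 of 18 measured were higher. Of 25 listed, 18 were measured in the 3XTg-AD library and none was lower, with a median log2 ratio of 0.65 (0.50 with members chosen by the 4 genes Hspa1a, Hspa1b, Hsph1 and Dnajb1). Hspe1 and Hspd1, the mitochondrial chaperonin pair whose shared promoter is shown above, stood at 662 and 248 CPM and at 392 and 176 CPM. Cacybp, a partner of HSP90 and of ubiquitin ligases, stood at 464 and 260 CPM, and Chordc1, an HSP90 co-chaperone, at 232 and 141 CPM. Under that 4-gene choice Hspe1 stayed past the 1.5-fold limit (log2 ratio 0.73), and Hspd1 (0.49), Cacybp (0.56) and Chordc1 (0.29) did not. Ubb, a polyubiquitin gene, was at 1.20 times the others (1.16 to 1.24) and Sqstm1, an autophagy receptor, at 1.16 times (1.02 to 1.33), both under the limit. Hsf1 itself stood at 52.3 and 44.7 CPM, a ratio of 1.17 with an interval of 0.813 to 1.65, so a difference was not detectable at this depth. The small heat-shock genes Hspb1, Hspb8 and Cryab, and Serpinh1, Zfand2a, Hspa2 and Hsf2, were below the measuring limit.

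**Figure D3:**
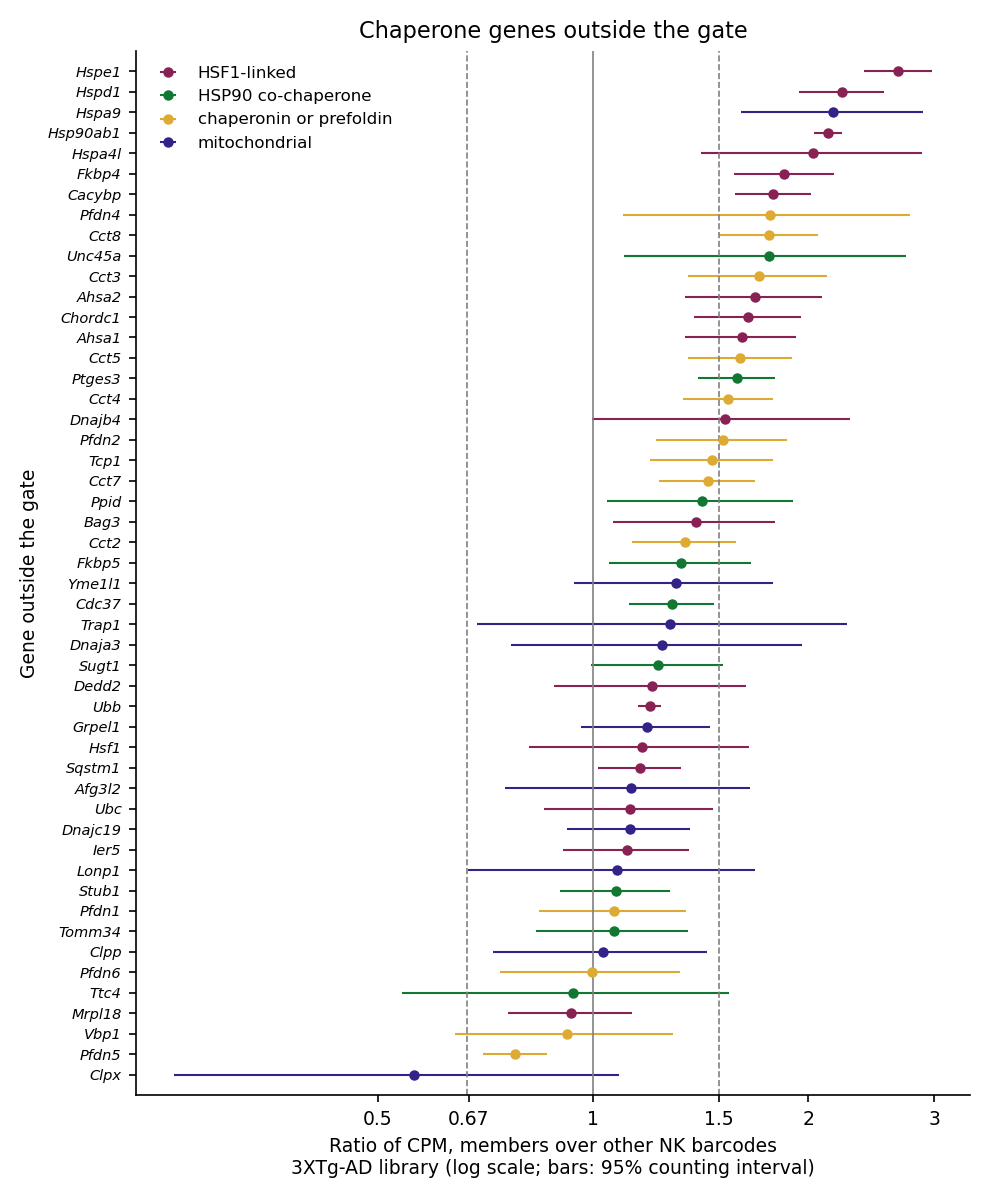
Ratio of CPM, 3XTg-AD members over the other 3XTg-AD NK barcodes (x axis, log scale), for each measured chaperone gene outside the gate (y axis), coloured by list, with a gene of several lists shown once under the first; bars are 95% counting intervals, the solid line marks 1 and the dashed lines the 1.5-fold limits. Hspe1 leads at 2.67, most HSP90 co-chaperones and chaperonin subunits lie above 1, and Pfdn5 at 0.777 and Clpx at 0.561 lie lowest.

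Of 15 genes of the HSP90 machine, all measured, 8 were higher and none lower, with a median log2 ratio of 0.67, which was 0.25 under the 4-gene choice; 6 of the 8 are also counted among the HSF1-linked genes. Fkbp4, a peptidyl-prolyl isomerase that docks on HSP90, stood at 270 and 146 CPM (ratio 1.85, 1.57 to 2.17). Ptges3, the p23 co-chaperone, stood at 432 and 272 CPM (1.59, 1.40 to 1.80). Under the 4-gene choice Fkbp4 stayed past the limit (log2 ratio 0.71) and Ptges3 did not (0.23). Cdc37, which loads kinases, was at 1.29 times (1.12 to 1.47), under the limit. In wildtype members Fkbp4, Chordc1 and Cacybp had 15, 12 and 17 UMIs, at 2.72, 2.42 and 2.0 times the others.

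The HSP70 partners moved less. Of 21 measured, 5 were higher (Hspa4l, Dnaja4, St13, Hspbp1 and Dnajb4) and none lower, and the median log2 ratio was 0.18. St13, which bridges HSP70 and HSP90, stood at 334 and 196 CPM, a ratio of 1.70 (1.47 to 1.96), and had 6 UMIs in wildtype members, at 0.924 times the others. Bag1, a nucleotide exchange factor, was at 1.05 times (0.907 to 1.22).

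The TRiC chaperonin folds actin and tubulin, and prefoldin feeds it. All 7 measured TRiC subunits lay above 1, from 1.34 (Cct2) to 1.76 (Cct8), and 4 passed the limit. Of 6 prefoldin subunits, Pfdn4 and Pfdn2 passed the limit, and Pfdn5 was lowest at 544 CPM in members and 700 in the others (0.777, 0.701 to 0.861). The split of this list into its 2 complexes was made after its values were seen. The median log2 ratio of the whole list, 0.55, fell to 0.16 under the 4-gene choice. Of the tubulin and actin genes, Tuba1c was at 1.71 times (1.43 to 2.04) and Actb at 1.41 times (1.38 to 1.44), and 3 of 12 passed the limit.

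Folding genes of the mitochondrion and the endoplasmic reticulum followed unevenly. Of 12 mitochondrial chaperones and proteases, Hspe1, Hspd1 and Hspa9 were higher and Clpx lower, and the other 8 did not pass. Hspa9, the mitochondrial HSP70, stood at 88.4 and 40.8 CPM. Of 22 endoplasmic reticulum genes, 7 were higher and none lower, with a median log2 ratio of 0.47 (0.25 under the 4-gene choice). The highest were Hyou1, a nucleotide exchanger of Hspa5 (2.28 times), Hspa5 itself (2.07 times) and Creld2, a protein disulphide isomerase-like protein (138 and 71.0 CPM). Hsp90b1, the HSP90 of this compartment, stood at 768 and 519 CPM, a ratio of 1.48. Ddit3, the transcription factor CHOP, was at 0.697 times (0.384 to 1.19). Of 31 proteasome subunits, 27 lay above 1 but 2 passed the limit.

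Of 22 ribosome biogenesis genes measured in the 3XTg-AD library, 9 were higher and 1 lower, with a median log2 ratio of 0.57, which was 0.14 under the 4-gene choice. In wildtype members, with 113 UMIs of the list, none of 3 measured genes was higher and their median log2 ratio was -0.39. The summed level of the list was 0.925 times that of the others (0.761 to 1.11) in wildtype members and 1.21 times (1.15 to 1.27) in 3XTg-AD members. In the top 10% of the wildtype library, described below, it was 1.23 times (1.16 to 1.31). Fbl, the methyltransferase of ribosomal RNA, stood at 122 and 61.9 CPM (1.97, 1.54 to 2.51), and Nolc1, a nucleolar scaffold, at 64.8 and 39.9 CPM (1.62, 1.16 to 2.24); under the 4-gene choice Fbl fell under the limit (log2 ratio 0.39). Npm1 was at 0.936 times (0.843 to 1.04). Of 84 ribosomal protein genes none was higher and 1 lower, with a median log2 ratio of -0.27, and all 13 mitochondrially encoded genes lay inside the limits with a median of -0.32. In the wildtype members the ribosomal proteins had a median of -0.32 over 81 genes, of which 7 were lower.

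Activation genes were higher in part, and some of them rested on few barcodes. Of 12 receptor-triggered genes measured in the 3XTg-AD library, 5 were higher (Nr4a3, Xcl1, Tnfrsf9, Nr4a2 and Ccl4) and 1 lower (Egr1). Xcl1, a chemokine for dendritic cells, stood at 474 and 186 CPM, but 61 of 270 members held its 381 UMIs and 1 held 48. Its log2 ratio of 1.35 fell to 0.12 (-0.14 to 0.37) under the 4-gene choice, which ends the call. Tnfrsf9, the costimulatory receptor 4-1BB, stood at 149 and 73.0 CPM, with UMIs in 51 members, and turned to a log2 ratio of -0.53 under that choice. Nr4a3, an early nuclear receptor, stood at 37.4 and 14.4 CPM, and its log2 ratio of 1.37 fell to 0.24 (-1.20 to 1.46) with members chosen and measured on separate UMIs. Ccl3 was at 1.06 times (0.913 to 1.22), Ifng at 1.30 times (0.873 to 1.90) and Nr4a1 at 1.24 times (0.891 to 1.69), with no difference detectable.

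Immediate early genes, the first to be transcribed after many stimuli, mostly stayed inside the limits. Of 21 measured, 2 were higher (Dusp1 and Gadd45b) and 1 lower (Cd69), with a median log2 ratio of 0.23. Fos stood at 44.8 CPM in 3XTg-AD members and 42.7 in the others (1.05, 0.709 to 1.52), Jun at 171 and 118 CPM (1.44, 1.18 to 1.75), and Junb at 560 and 510 CPM. Dusp1, a MAP kinase phosphatase, was at 2.60 times (1.85 to 3.63), but 21 of its 58 UMIs came from 1 member and its log2 ratio of 1.38 fell to 0.15 on separate UMIs. Egr1, of the receptor-triggered list, stood at 17.4 and 51.0 CPM, and turned to a log2 ratio of 1.21 under the 4-gene choice. Among NF-kB genes 3 of 15 were higher (Nfkb2, Nfkbid and Icam1), with Nfkbid at 84.7 and 41.1 CPM. The inhibitor Nfkbia, at 325 and 251 CPM, was at 1.29 times (1.12 to 1.49), under the limit.

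Cytotoxic genes shifted by less than the limit in general. Prf1, the pore-former perforin, stood at 1920 CPM in 3XTg-AD members and 1127 in the others (1.70, 1.61 to 1.81) and was the 1 of 13 that passed, though not under the 4-gene choice (log2 ratio 0.38). Gzmb, granzyme B, was at 1.43 times (1.35 to 1.51) in 3XTg-AD but at 0.561 times in the wildtype members, and Gzma at 1.18 and 1.05 times. Ccl5, a chemokine that NK cells store, was under 1 in both libraries, at 24359 and 32953 CPM in 3XTg-AD (0.739) and 18146 and 27987 CPM in wildtype (0.648).

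Of 11 genes of immature NK cells measured in the 3XTg-AD library, 5 were lower (Thy1, Cd7, Cd226, Ltb and Ctla2a) and Xcl1 alone was higher, with a median log2 ratio of -0.51. Their summed level was 0.929 times that of the others (0.873 to 0.988) in 3XTg-AD members and stood at 1787 and 1758 CPM in the wildtype library (90 UMIs in members). Cd7 stood at 397 CPM in 3XTg-AD members and 659 in the others (0.603, 0.535 to 0.678), and at 476 and 534 CPM in wildtype. Cd27 was at 0.860 times (0.525 to 1.35). None of 13 genes of terminal maturation passed either limit in the 3XTg-AD library, with a median log2 ratio of -0.02, while their summed level was 1.17 times that of the others (1.14 to 1.20), and stood at 11694 and 9339 CPM in the wildtype library (ratio interval 1.15 to 1.36). Klrg1, a receptor of mature NK cells, was at 0.909 times (0.795 to 1.04).

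The levels of cell division genes rested on few barcodes, and their direction in 3XTg-AD members depended on how members were chosen. Of 13 measured genes of G2 and M phase, 11 were lower and Tubb4b was higher, with a median log2 ratio of -1.89. The median was -0.20 with members chosen on thinned barcodes, -0.64 on separate UMIs, -0.25 with dividing barcodes left out and 0.81 for the top 20% of NK barcodes. Ube2c and Ccna2 had no UMI in members, with ratio intervals that reach up to 0.170 and 0.266. Mki67, a marker of cycling cells, was at 0.270 times the others, but had a log2 ratio of 0.87 for the top 20%. Barcodes with at least 5 UMIs over 10 mitosis genes numbered 1 of 270 members (0.370%, 0.00938 to 2.05%) and 11 of 1187 others (0.927%, 0.463 to 1.65%), intervals that overlap. The 11 held 93.7% of the UMIs of these genes in the others and were deep (median 12101 UMIs). Of the 20 wildtype members none passed, which allows a share of up to 16.8%.

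To describe an equal share of each library, the top 10% of each library by its own gate share were also described: 144 wildtype barcodes, with gate shares from 0.394%, and 146 3XTg-AD barcodes, from 0.820%. All 20 wildtype members and 146 of the 3XTg-AD members are among them. Of 4952 genes measured in both, 73 were at least 1.5-fold higher than the rest of the library in both (1.47%) and 39 lower (0.788%). Read alone, the wildtype library had 324 of 5155 genes higher (6.29%) and 295 lower (5.72%), and the 3XTg-AD library 332 of 5270 higher (6.3%) and 409 lower (7.76%). The 3XTg-AD barcodes here are a subset of those above, so only the wildtype values are new here.

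The higher genes in the wildtype top 10% included many of those named above. Hsp90ab1 was at 1.73 times in wildtype and 2.33 times in 3XTg-AD, Hspd1 at 1.81 and 2.46 times, Hspa9 at 1.86 and 1.83 times, Hspa5 at 1.86 and 2.23 times, and Cacybp at 1.73 and 2.01 times. Of 13 genes of HSP90 and its co-chaperones measured, 6 passed in both libraries. So did 6 of 20 ribosome biogenesis genes, 6 of 16 HSF1-linked genes and 4 of 12 chaperonin and prefoldin genes. Hsp90ab1, Fkbp4, Cacybp, Ahsa2 and Chordc1 are counted in both the HSP90 and the HSF1-linked lists. Ruvbl2, an ATPase that works with HSP90 in assembling complexes, was at 1.99 and 2.46 times, Fbl at 1.81 and 2.14 times, and Nop16, a nucleolar protein, at 1.94 times in both. Hspe1 was at 1.30 times in wildtype (under the limit) and 2.99 times in 3XTg-AD. Endoplasmic reticulum genes were near the background in wildtype, with 2 of 20 higher and a median log2 ratio of 0.11, against 7 of 20 and 0.53 in 3XTg-AD; the difference was not tested.

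**Figure D4:**
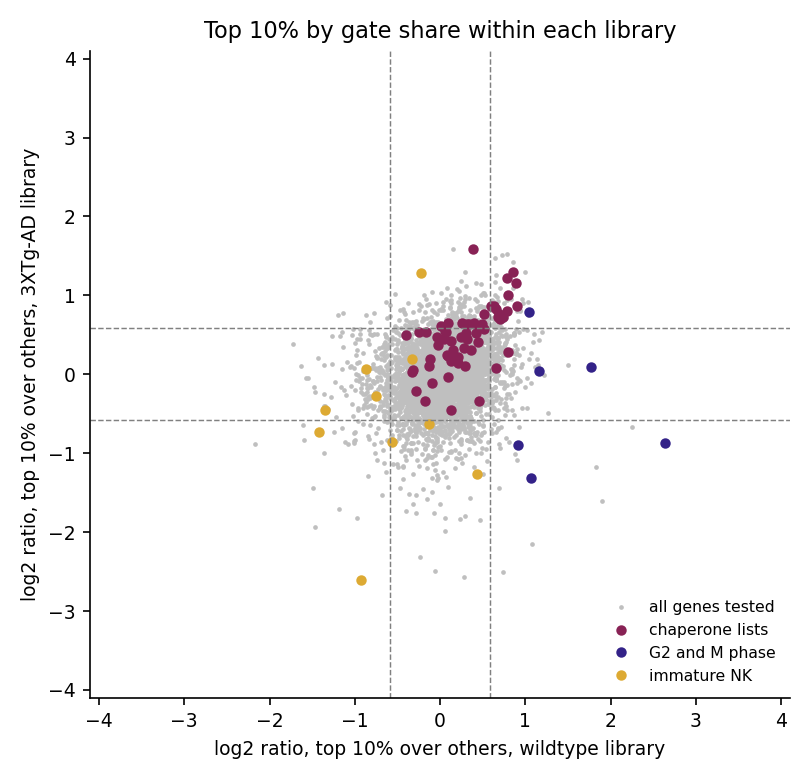
log2 ratio of CPM of the top 10% by gate share over the rest of the library, wildtype (x axis) against 3XTg-AD (y axis), for 4952 genes (grey), with chaperone, G2 and M phase and immature NK lists coloured, and dashed lines at the 1.5-fold limits. Hsp90ab1, Hspd1, Hspa5 and Cacybp lie in the upper right corner, and the 6 measured G2 and M phase genes lie to the right of the wildtype limit.

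Among genes lower in both were Ctla2b, a protease inhibitor, at 0.440 and 0.305 times, and Il7r, the interleukin 7 receptor, at 0.525 and 0.164 times, with 2 UMIs in the 3XTg-AD barcodes. In the members themselves Il7r was at 0.812 times (0.454 to 1.37) in 3XTg-AD and 1.91 times (0.615 to 4.53) in wildtype, so a lower level was not detectable there. The immature NK list had 5 of 10 genes lower in each, with a median log2 ratio of -0.66 in wildtype and -0.54 in 3XTg-AD. The list of G2 and M phase genes had opposite signs, 1.11 in wildtype with 6 of 6 genes higher, and -0.41 in 3XTg-AD with 1 higher and 3 lower. In wildtype, 3 barcodes of 144 held 97.8% of the UMIs of 10 mitosis genes in the top 10%.

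**Figure D5:**
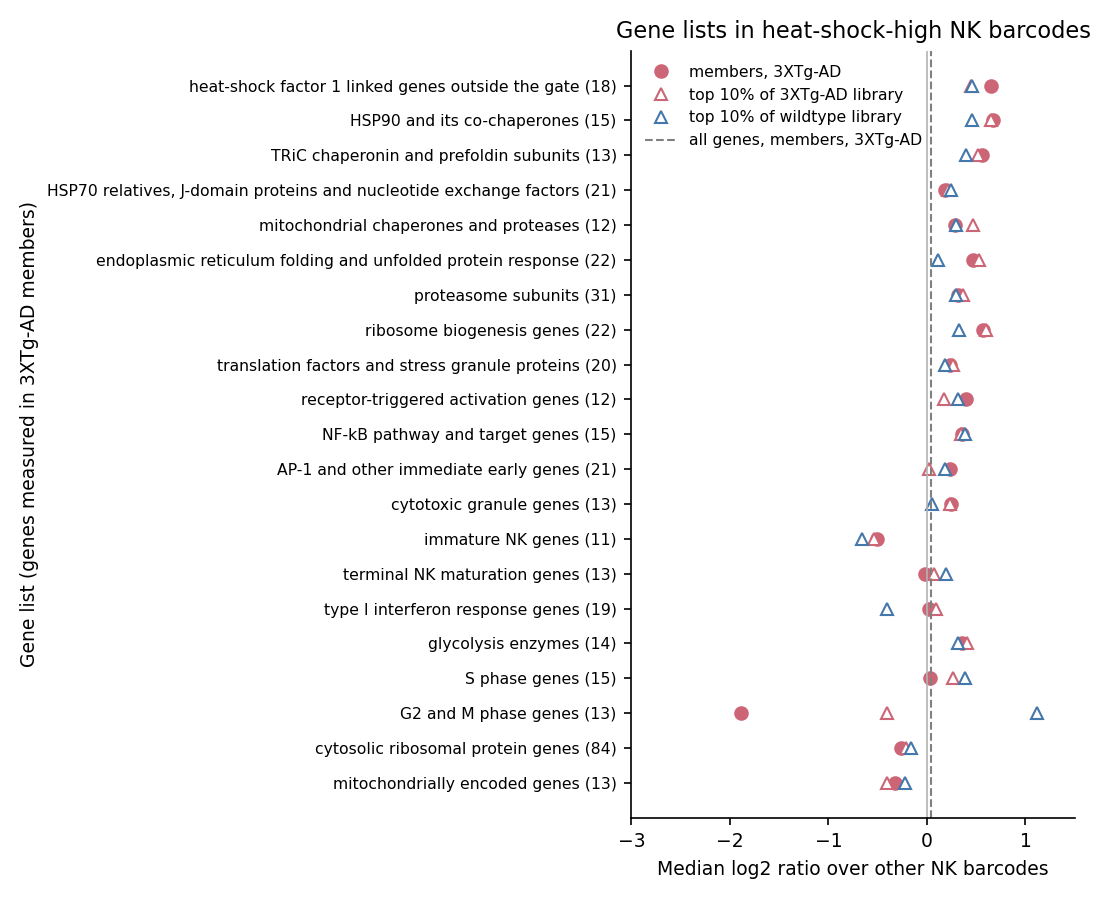
Median log2 ratio (x axis) of each gene list (y axis, with the number of genes measured in 3XTg-AD members) in 3XTg-AD members (filled circles) and in the top 10% of the 3XTg-AD (red triangles) and wildtype (blue triangles) libraries, each over the other NK barcodes of its library; the dashed line is the median of all genes in 3XTg-AD members (0.05). Chaperone and ribosome biogenesis lists lie to the right and immature NK genes to the left in all 3, while G2 and M phase genes lie at -1.89, -0.41 and 1.11.

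Members of the 2 libraries were set side by side, with the other NK barcodes of both libraries as the background. Of 785 genes with at least 10 expected UMIs in the members of each, 80 were at least 1.5-fold higher in 3XTg-AD members (10.2%) and 42 lower (5.35%), against 13 (1.66%) and 3 (0.382%) of the same genes between the other NK barcodes, where the depth was far greater. Hsp90ab1 stood at 1.74 times the wildtype level in members (1.43 to 2.14) and at 1.38 times in the others. Klra3, a receptor of the Ly49 family, had 204 UMIs in 3XTg-AD and none in wildtype members. That is 4.27-fold higher with wildtype members set to the floor of 3 UMIs, and Klra3 was at 1.86 times in the others. Klra8 was at 2.07 times (1.28 to 3.59) and 1.91 times, and St13 at 2.80 times (1.27 to 7.70) and 1.52 times. Ly49 genes are closely related copies that vary between mouse strains, so the split of UMIs among them is uncertain. Lower in 3XTg-AD members were Ccl3 at 0.314 times (0.228 to 0.440), with 38 of the 46 wildtype UMIs in 1 member, Ly6e at 0.450 times (0.637 in the others), Ly6c2 at 0.575 times and S100a10 at 0.594 times.

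Barcodes that the NK rule left out were few, and the shares of them above the member limit had wide intervals. Each was placed in 1 group only, so a group does not hold every barcode that fails its criterion. Of barcodes with an Ncr1 or Klrb1c UMI, 103 wildtype and 89 3XTg-AD barcodes had more than 2 ILC1 UMIs. No UMI of Ncr1 or Klrb1c was found in 43 and 28 barcodes. In the group placed by more than 2 ILC1 UMIs, 0 of 86 wildtype (up to 4.20%) and 1 of 67 3XTg-AD barcodes (1.49%, 0.0378 to 8.04%) were above the member limit. Their median depths were 5330.5 and 5514 UMIs. In the group placed by a Cd3 UMI, 1 of 79 and 7 of 88 (7.95%, 3.26 to 15.7%) were above it. In the group placed by a C1q UMI, 0 of 15 and 2 of 60 were (3.33%, 0.406 to 11.5%). Median gate shares in these groups were 0.187, 0.206 and 0.233% in wildtype and 0.255, 0.305 and 0.290% in 3XTg-AD. In these 3 groups the 3XTg-AD medians were the higher ones, as among NK barcodes. The group placed by having no UMI of Ncr1 or Klrb1c was shallow (median 1607 and 1033 UMIs). In it, 2 of 37 wildtype (5.41%, 0.661 to 18.2%) and 0 of 13 3XTg-AD barcodes (up to 24.7%) were above the limit. This is the reverse order of shares, with intervals that overlap. The median gate shares of this group were 0.185 and 0.327%.

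At equal depth the top 10% of barcodes by gate share was compared with the top 10% by other lists. Choices unrelated to each other would share about 10% of their barcodes. The scores are shares of the same UMIs and so are not independent, which makes 10% a reference point and not a test. With barcodes thinned to 1400 UMIs, 138 3XTg-AD barcodes were highest by the gate, and 30 of them were also in the top 10% by proteasome genes (21.7%, 15.2 to 29.6%), 30 by endoplasmic reticulum folding genes and 27 by ribosome biogenesis genes (19.6%, 13.3 to 27.2%). In the wildtype library the numbers were 21 (15.8%, 10.0 to 23.1%), 16 (12%, 7.04 to 18.8%) and 21 of 133. In 3XTg-AD, 23 of 138 were shared with G2 and M phase genes (16.7%, 10.9 to 24.0%) and 23 with receptor-triggered genes. Cytokine signal targets shared 22 (15.9%, 10.3 to 23.1%), S phase genes 21, interferon genes 20, and cytotoxic and terminal NK genes 19 each. The overlap with immature NK genes was 15 of 138 (10.9%, 6.21 to 17.3%) in 3XTg-AD and 7 of 133 (5.26%, 2.14 to 10.5%) in wildtype, and with immediate early genes 17 of 138 (12.3%, 7.34 to 19.0%) and 16 of 133 (12%). The intervals of these 4 shares, and of the wildtype endoplasmic reticulum share, include 10%. So do the 3XTg-AD intervals for S phase (from 9.67%), interferon (from 9.08%), and cytotoxic and terminal NK genes (from 8.50%). In wildtype, intervals for receptor-triggered, cytokine, S phase, interferon, cytotoxic, terminal NK, and G2 and M phase genes also include 10%. No overlap was tested. Lists of equal size from the same barcodes give the same share of each list.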

How the data were processed

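The authors deposited, per library, a matrix of counts: whole-number UMIs per gene and barcode. Cell Ranger 3.1.0, STAR and mm10 are named in the submitters' processing notes, and the matrix headers carry version 3.0.2, per the file headers; the annotation release is not stated. Gene positions are from GENCODE M21 (GRCm38), and promoter letters from RefSeq (GRCm38.p6).

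UMIs were summed over members and over other NK barcodes of each library and scaled to CPM without the 8 gate genes. Ratios carry exact conditional binomial 95% intervals and shares Clopper-Pearson intervals, which cover counting error only. Cells are not replicates and each genotype had 1 library, so no test was run. Genes needed 10 expected UMIs in members, so the filter did not use the contrast; genes at 0 entered list medians at a floor of 3 UMIs. The procedure was tested on simulated data. Alternatives included other choices of members, scalings, filters and Scrublet doublet removal (scanpy 1.11.5), which marked 13 wildtype and 22 3XTg-AD barcodes; doublets stayed in otherwise. Python 3.11.15, numpy 2.4.6, scipy 1.17.1 and pandas 2.3.3 were used.

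Members, lists and tests were chosen with earlier results of these data known. Genes are named by rule: gate genes, those called in both libraries, up to 4 per list, the 8 highest and 8 lowest between members of the libraries, and a set of NK and stress genes. The reading of the 3XTg-AD library alone, with its 20 higher and 10 lower genes, the naming from the top 10% of each library, the lowest and highest genes of lists and the genes that passed within a list were added after values were seen.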

Additional observations from a re-analysis of the deposited data

Results flagged for a closer look

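The median log2 ratio of the G2 and M phase genes had opposite signs in the libraries when the top 10% by gate share of each was compared with its other NK barcodes: 1.11 in wildtype and -0.41 in 3XTg-AD. In the wildtype top 10%, 3 of 144 barcodes held 227 of the 232 UMIs of 10 mitosis genes, and in the 3XTg-AD top 10% 1 of 146 barcodes held 20 of 24. The difference between the libraries was not tested.

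Egr1, an early growth response transcription factor, was at 14.3 times the other NK barcodes in wildtype members and at 0.342 times in 3XTg-AD members. All 22 Egr1 UMIs of the wildtype members came from 1 barcode, and in 3XTg-AD members 14 UMIs came from 11 barcodes. The difference between the libraries was not tested.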

How the results depend on the processing

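No paired analysis was possible because each genotype has 1 library. Of the main values under the alternatives, 212 kept within their spread or 1.5 times, 50 moved and 1 turned its sign. The member shares (wildtype, then 3XTg-AD) were 0.277 and 9.68% for the top 5%, 4.36 and 35.5% for the top 20%, 9.97 and 10.0% by construction for the top 10% of each library, and 4.22 and 15.7% when Hspa1a, Hspa1b, Hsph1 and Dnajb1 chose them. The genes called in both libraries (higher, then lower) were 0 and 0 for the top 5%, 23 and 6 for the top 20%, 73 and 39 for the top 10% of each library, 2 and 4 for that 4-gene choice, 3 and 1 with members chosen and measured on separate UMIs, 17 and 8 at 5 expected UMIs, 3 and 0 at 20, 264 and 37 with no filter, and 1 and 0 at a fold of 2. The lower ones alone were 0 with the choice on thinned barcodes, 5 without ribosomal and mitochondrial genes in the scaling, 0 for means over barcodes and 1 with intervals apart from 1. In the 3XTg-AD library, higher and lower genes were 206 and 172 at 20 expected UMIs, 1352 and 1217 with no filter and 52 and 120 at a fold of 2, and the lower ones 724 at 5 expected UMIs and 182 with intervals apart from 1. Between members of the libraries, 588 were higher and 482 lower for the top 10% of each. There the wildtype barcodes held 449923 UMIs outside the gate genes, against 50370 in the wildtype members, so more genes could pass the filter. The numbers of genes measured under these settings are not given. The counts are therefore not shares and cannot be compared between settings that change the filter or the set of barcodes. On separate UMIs the 3XTg-AD ratios were 2.56 (Hsph1), 1.70 (Dnajb1), 1.87 (Dnaja1), 2.33 (Hsp90aa1) and 1.97 (Hspa8). Signs turned (log2) for the top 20% in the G2 and M phase median (0.81), Mki67 (0.87) and Top2a (0.47), for the thinned choice in Egr1 (0.084) and Top2a (0.43), for the 4-gene choice in Gzmb (-0.036), Tnfrsf9 (-0.53), Egr1 (1.21) and Il7r (0.13), for separate UMIs in Il7r (0.13), and in Hsf1 for the top 5% (-0.081) and the top 10% of each library (-0.035); the intervals of Il7r and Hsf1 span 0 throughout these settings and in the members. The cause was not tested. The G2 and M phase median was -0.20 with the thinned choice, -0.64 on separate UMIs and -0.25 without dividing barcodes. Over 17 alternatives the medians ranged from 0.43 to 0.67 (HSF1-linked), 0.25 to 0.68 (HSP90), 0.16 to 0.60 (chaperonin and prefoldin), 0.14 to 0.60 (ribosome biogenesis) and 0.25 to 0.57 (endoplasmic reticulum). The lowest values came from the 4-gene choice except for the HSF1-linked list (top 20%), and that choice put the mitochondrially encoded median at -0.15. Of the 8 chaperone genes followed, Hsp90ab1, Hspe1 and Fkbp4 stayed past the 1.5-fold limit in all 14 alternatives, and Hspd1, Hspa5, Cacybp, Chordc1 and Ptges3 fell under it for the 4-gene choice (Chordc1 and Ptges3 also for the thinned choice and Ptges3 for the top 20%). Depth limits the wildtype members, whose 20 barcodes leave most genes unmeasured.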
